A study of Homo sapiens with 6 samples.

Results

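The 10 genes described here build, remove or read linear ubiquitin chains: the deubiquitinase gene OTULIN and its paralog OTULINL, the ligase subunit genes RNF31, RBCK1 and SHARPIN, the deubiquitinase gene CYLD with its partner SPATA2, and the editor gene TNFAIP3 with its partners TNIP1 and TNIP2. They were taken by gene name from the table of the series, and all 10 were found among its 32862 genes. The cells were SH-SY5Y, a line from a human neuroblastoma, and their poly(A)-selected RNA was sequenced. There were 3 libraries of wild-type cells (WT) and 3 of cells whose OTULIN gene was disrupted by CRISPR-Cas9 (KO). Both groups were untreated, were grown in the same serum-supplemented medium and carry the same batch number, 1, in their labels. The labels do not say whether the KO line was a single clone or whether replicates were separate cultures, and the spread behind each p-value may therefore be technical.

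Linear chains join ubiquitin molecules head to tail and are assembled by LUBAC, a ligase made of RNF31 (also called HOIP), RBCK1 (HOIL-1) and SHARPIN. On receptor complexes such as that of TNF they recruit the kinases that activate NF-kB. OTULIN cleaves linear chains only, while CYLD cleaves linear chains and some lysine-linked ones. OTULIN and SPATA2 both dock on the same domain of RNF31, and SPATA2 brings CYLD to the complex.

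Depth differed so much between the groups that the WT libraries carry nearly all that can be said of these genes. Total counts were 725827 to 862932 per KO library and 61772795 to 64352333 per WT library, a 78.5-fold difference of the means (exact two-sided permutation test, p = 0.1, the smallest that 3 against 3 allows). Genes with a count averaged 2415 in KO and 27707 in WT (exact permutation test, p = 0.1). Genotype and depth therefore cannot be told apart. At their WT share of the counts, RPS27A would have had 283 to 336 counts per KO library and VCP 235 to 280. Both had 0 in each KO library. UBE2D3 went the other way, with 8788 to 9412 counts where 217 to 258 were expected. The cause of these gaps was not tested. Whether the KO columns hold every read of the KO libraries was not tested. A 0 there, and any bound or fold computed from these columns, therefore describes the deposited table. Such values need not mean lower or higher expression. Among 8 markers of noradrenergic neuroblastoma, all had counts in WT, where they summed to 4921 to 5618 CPM (deposited counts scaled to the library total), although TH, the first enzyme of catecholamine synthesis, had only 97 to 138 counts. In KO 3 of the 8 had counts, and the sum was 464 to 598 CPM. Of the 10820 genes that averaged 1 FPKM or more over all libraries, 71.3% were at 0 counts in every KO library. The marker counts in KO are therefore not read as a result about these markers. In such bulk samples fewer cells of a type, less RNA per cell and reads missing from the KO columns cannot be told apart.

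Within WT cells the 10 genes covered a wide range of deposited FPKM (fragments scaled to gene length and to the mapped total of the library). The order of different genes on this scale depends on the length taken for each gene, as described below. SHARPIN was highest at 11.2 ± 0.93 FPKM (mean ± SD, n = 3 here and below), and TNFAIP3 was lowest at 0.0199 ± 0.029. Between them came TNIP1 at 7.89 ± 0.66, TNIP2 at 7.45 ± 0.53, OTULINL at 4.98 ± 0.51 and RBCK1 at 4.55 ± 0.40. SPATA2 followed at 3.81 ± 0.55, OTULIN at 3.30 ± 0.42, RNF31 at 2.66 ± 1.2 and CYLD at 2.32 ± 0.27. The ranges over the 3 libraries did not overlap between SHARPIN and TNIP1, between TNIP2 and OTULINL, or between CYLD and TNFAIP3. All other neighbours in this order overlapped and are not told apart by their spread. Of the 10820 genes tested, OTULIN lay above 20.5%, CYLD above 8.23% and SHARPIN above 66.1%, where the median WT level was 7.24 FPKM. The genes tested averaged 1 FPKM or more across all 6 libraries, KO included. A gene at 0 in KO passes that filter only at a higher WT level. Genes of low WT level are thus under-represented, and these shares are not ranks among all genes expressed in WT. The genes most like OTULIN in all 6 libraries were VPS13B, SCN3B and RLIG1, at a distance of 0.0439 to 0.0537 on log2(CPM + 1) among 16145 genes with a RefSeq protein. All 3 were at 0 counts in KO, and a total of 16 genes lay within 0.1 of OTULIN, so these are 3 of many.

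**Figure D1:**
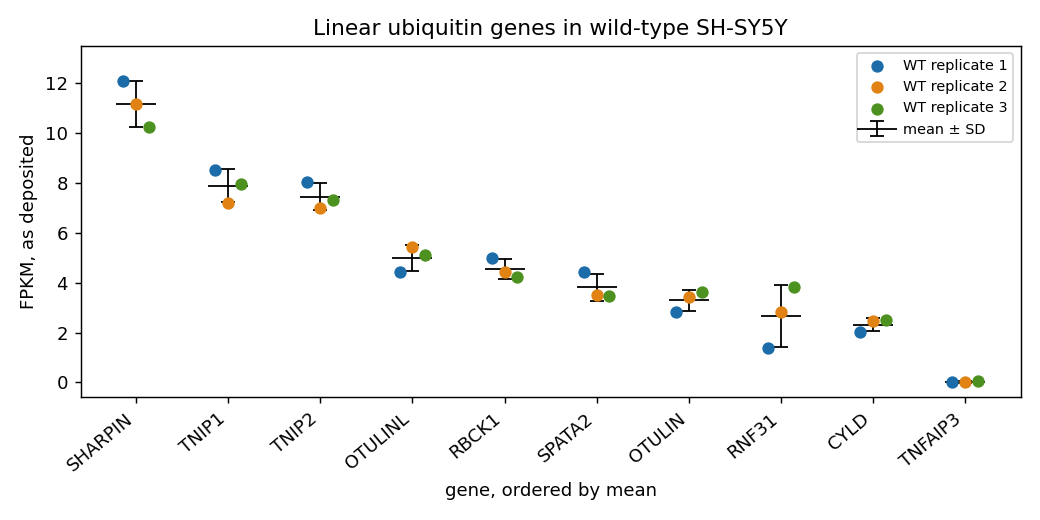
Deposited FPKM (vertical axis) of the 10 genes in each WT library (coloured points), with mean and SD over the 3 libraries (black). SHARPIN sits between 10.3 and 12.1 FPKM above all others, RNF31 is the most scattered, from 1.37 to 3.82, and TNFAIP3 lies at or near 0.

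The ligase subunits differed in level on this scale. SHARPIN, the adaptor subunit (chromosome 8, 144098633 to 144108124, minus strand, hg38), had 12.1, 11.2 and 10.3 FPKM in WT replicates 1, 2 and 3. RBCK1, which carries a ligase domain of its own (chromosome 20, 407498 to 430966, plus strand), had 5.00, 4.44 and 4.22. RBCK1 was thus at 0.407 of SHARPIN, a log2 ratio of -1.30 ± 0.032, lower in 3 of 3 libraries and by far more than the spread. RNF31, the subunit whose active site forms the linear bond (chromosome 14, 24146683 to 24160660, plus strand), had 1.37, 2.81 and 3.82 FPKM. It was lowest of the 3 subunits in every WT library, but its ratio to SHARPIN ran from 0.113 to 0.372. Its highest WT value was 2.80 times its lowest, a spread wider than that of 98.6% of 12713 genes with a WT mean of at least 1 FPKM, whose median was 1.14.

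The scatter of RNF31 was matched by an opposite scatter at a locus that overlaps it. ENSG00000259529 (chromosome 14, 24147548 to 24166452, plus strand, hg38) lies over RNF31 on the same strand and runs on over IRF9, a gene for an interferon-response factor. It was singled out after its values were seen. GENCODE release 29 marks its transcript as a readthrough, and of 4798 exon bases there 1732 lie in exons of RNF31 and 1838 in exons of IRF9. RNF31 had 635, 1334 and 1737 counts in WT replicates 1, 2 and 3, and ENSG00000259529 had 3027, 2242 and 1945. The library with the fewest RNF31 counts thus had the most at the overlapping locus, and the reverse. Their sums were 3662, 3576 and 3682 counts, with a coefficient of variation of 1.55% against 45.1% for RNF31 alone and 23.2% for ENSG00000259529 alone. As a share of the library the sum was 58.0 ± 2.1 CPM, while RNF31 alone was 19.7 ± 9.0 CPM and took 17.3%, 37.3% and 47.2% of it. How the authors divided reads in shared exons is not given in the sources used here, and its part in the RNF31 value was not tested. The sum is an upper value for RNF31, since part of the locus lies over IRF9. IRF9 itself had 179 to 250 counts, and how much of the locus count comes from IRF9 exons was not tested.

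**Figure D2:**
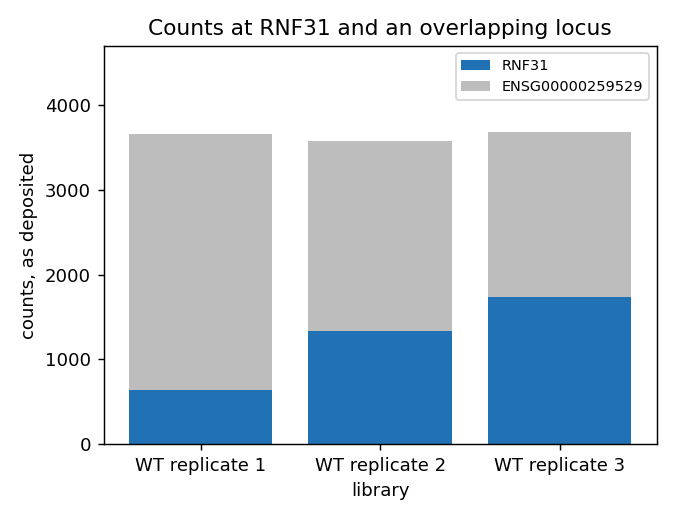
Deposited counts (vertical axis) of RNF31 (blue) and of the overlapping readthrough locus ENSG00000259529 (grey), stacked for each WT library. The blue part ranges from 635 to 1737 counts, while the full bars stay between 3576 and 3682.

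The length by which counts are divided also set the order of the subunits. Counts divided by deposited FPKM imply a length for each gene, which need not be a length the authors used. For 1229 genes with 1 listed transcript and at least 200 counts in each WT library, the implied length was a median of 1.09 times the annotated transcript length (quartiles 1.09 and 1.10). With that factor removed, the length implied for RBCK1 was 10770 bases, 3.88 times its longest protein-coding transcript in GENCODE release 29 (2774 bases). The same quotient was 2.01 for TNIP1, 1.96 for OTULINL, 1.87 for RNF31, 1.58 for SHARPIN and 1.52 for CYLD. It was 1.46 for TNFAIP3, 1.32 for TNIP2, 1.12 for OTULIN and 1.04 for SPATA2. The table lists 27 transcripts for RNF31, 17 for RBCK1, 3 for OTULINL and 1 each for SPATA2 and TNFAIP3. The quotient thus did not follow the number of transcripts alone. The implied length for RBCK1 also exceeded the 4024 bases of all its exons in release 29. The larger the quotient, the further the deposited FPKM lies below a level computed per longest coding transcript.

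Per kilobase of the longest coding transcript and scaled to the library total as CPM is, an alternative added after the data were seen, RBCK1 and SHARPIN were level. RBCK1 had 21.2, 18.8 and 17.9 in WT replicates 1, 2 and 3, and SHARPIN 20.8, 19.3 and 17.7, a ratio of 1.00 (log2 0.00 ± 0.032). RNF31 alone stood at 5.43 ± 2.5 on that scale, and together with its overlapping locus at 16.0 ± 0.59. The summed value was 0.831 of RBCK1 and 0.832 of SHARPIN, below both in 3 of 3 libraries. The 3 subunits then lay within 16.0 to 19.3, in place of the 2.66 to 11.2 of the deposited FPKM. Both the scale and the sum were chosen after the data were seen, and the sum is an upper value for RNF31. The 2774 bases used for RBCK1 are also far below the 10770 implied for it. Per kilobase of coding sequence RNF31 alone stood at 6.12 ± 2.8, RBCK1 at 35.0 ± 3.0 and SHARPIN at 29.3 ± 2.4.

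**Figure D3:**
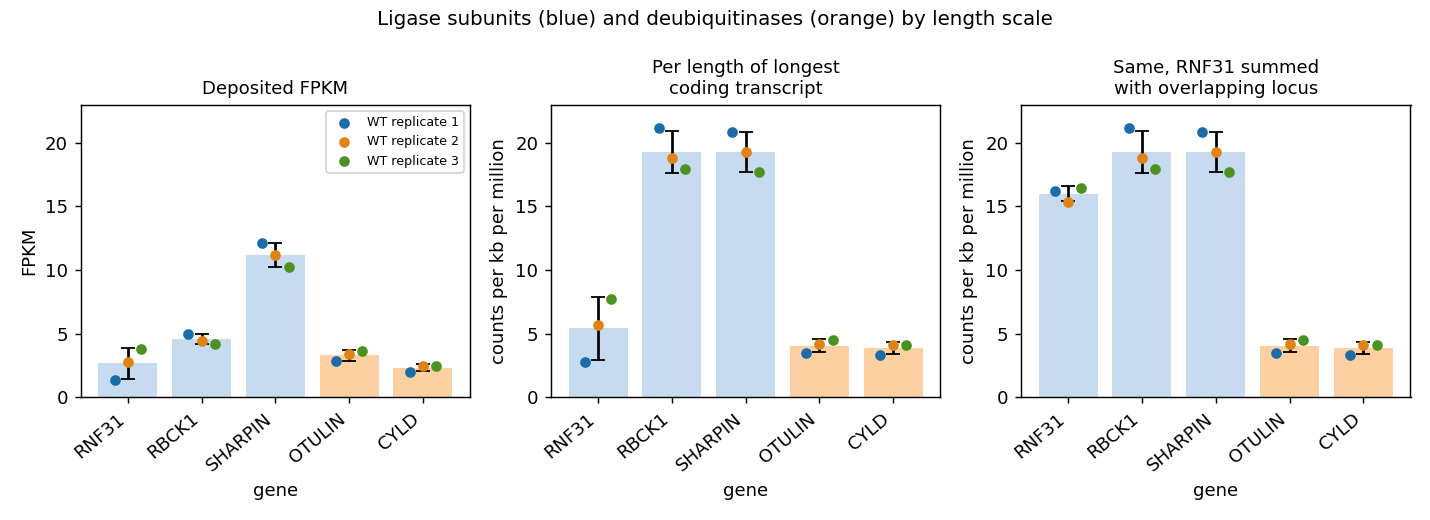
WT levels of 3 ligase subunits (blue bars) and 2 deubiquitinases (orange bars) as deposited FPKM (left), per kilobase of the longest coding transcript and scaled to the library total as CPM is (middle), and the same with RNF31 summed with ENSG00000259529 (right). Bars are means, whiskers SD and points the 3 libraries. In the right panel the subunits stand at 16.0 to 19.3 and OTULIN and CYLD at 4.04 and 3.86. The RNF31 sum is an upper value.

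The opposing deubiquitinases were steadier than RNF31, and how close they were to each other depended on the length scale. OTULIN (chromosome 5, 14664664 to 14699850, plus strand) had 2.83, 3.42 and 3.64 FPKM in WT replicates 1, 2 and 3. CYLD (chromosome 16, 50742050 to 50801935, plus strand) had 2.01, 2.46 and 2.49. CYLD was at 0.704 of OTULIN (log2 -0.51 ± 0.039), lower in 3 of 3 libraries, and both were lowest in WT replicate 1. Per longest coding transcript (7800 bases for OTULIN and 8503 for CYLD) the ratio was 0.956 (log2 -0.07 ± 0.039), and CYLD was still the lower in 3 of 3 libraries. Per kilobase of coding sequence the ratio was 0.384 (log2 -1.38 ± 0.039).

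Whether ligase or deubiquitinase RNA was the more abundant depended on RNF31 and the length scale. By deposited FPKM OTULIN was at 2.07, 1.22 and 0.955 times RNF31 in WT replicates 1, 2 and 3, above it in 2 of 3 libraries, a difference within the spread (log2 0.42 ± 0.57). With RNF31 summed with its overlapping locus, per longest coding transcript, OTULIN was at 0.214, 0.273 and 0.272 of RNF31 (log2 -1.99 ± 0.20). CYLD was at 0.944 of RNF31 by deposited FPKM and at 0.240 by the summed value. On the summed scale the lowest ligase subunit stood 4.01 ± 0.59 times above the higher of OTULIN and CYLD, against 0.784 ± 0.28 by deposited FPKM. That step changed both the length and the RNF31 count, and the sum is an upper value. With the longest coding transcript alone the quotient was 0.812, 1.37 and 1.73 in WT replicates 1, 2 and 3, and per kilobase of coding sequence it was 0.199 ± 0.071, which is the other way. Against SHARPIN, OTULIN was at 0.294 by deposited FPKM and 0.209 per longest coding transcript. Per kilobase of coding sequence (1056 bases for OTULIN, 1161 for SHARPIN) that ratio was 1.02, as OTULIN has a long transcript around a short coding part. No gene of the table overlaps OTULIN, while all 3 ligase subunits overlap a gene on the opposite strand. SHARPIN overlaps MAF1 (5834 to 6303 WT counts), RBCK1 overlaps TBC1D20 (3603 to 4097) and RNF31 overlaps PSME2 (2554 to 2688). Whether the counting used strand is not stated, so reads of those pairs may not be told apart. These are levels of RNA, and no protein was measured.

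SPATA2, the bridge between CYLD and RNF31 (chromosome 20, 49903391 to 49915529, minus strand), had 4.45, 3.52 and 3.46 FPKM in WT replicates 1, 2 and 3. It was at 1.64 times CYLD (log2 0.71 ± 0.38), higher in 3 of 3 libraries. Per longest coding transcript the ratio was 1.11, with 1 of 3 libraries above 1, so the 2 genes were not told apart on that scale. OTULINL, a paralog that lacks deubiquitinase activity and sits at the endoplasmic reticulum membrane, lies beside OTULIN on chromosome 5 (14581792 to 14616180, plus strand). It had 4.42, 5.42 and 5.11 FPKM. OTULINL was above OTULIN in 3 of 3 libraries, at 1.51 times by deposited FPKM and 2.64 times per longest coding transcript.

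TNIP1 and TNIP2, ubiquitin-binding partners of the TNFAIP3 protein, followed SHARPIN in deposited FPKM, while per longest coding transcript RBCK1 also stood above them. TNIP1 (chromosome 5, 151029945 to 151093577, minus strand) had 8.51, 7.20 and 7.97 FPKM in WT replicates 1, 2 and 3. TNIP2 (chromosome 4, 2741648 to 2756336, minus strand) had 8.03, 6.98 and 7.33. TNIP1 was above TNIP2 within each library, by 1.06 times (log2 0.08 ± 0.038), although their ranges over libraries overlapped. Per longest coding transcript the ratio was 1.61.

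TNFAIP3, which encodes the ubiquitin editor A20, was almost without reads although both of its partners were measured. It had 0, 3 and 24 counts in WT replicates 1, 2 and 3 (chromosome 6, 137867214 to 137883312, plus strand). The 0 in WT replicate 1 allows up to 0.0482 CPM at that depth, for counting error only. WT replicate 3 held 24 of the counts, and without it the mean was 0.00296 FPKM, where it had been 0.0199. Markers of epithelium were also high in that library. All 4 of that list had counts in WT, with a sum of 27.2 CPM in WT replicate 3 against 1.37 and 2.02 in replicates 1 and 2. KRT5, a keratin of basal epithelium, had 1042 counts there against 34 and 21, and KRT14, its partner keratin, 383 against 0 and 14. In KO the epithelial sum was 17.3 to 49.6 CPM. The part of these markers in the TNFAIP3 counts was not tested. Markers of blood and microglia, with 3 of 4 genes in the table, summed to 0.0466 to 0.194 CPM in WT.

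TNFAIP3 is known as a gene that NF-kB itself switches on. The promoter windows of TNFAIP3 and OTULIN are shown because these are the nearly silent and the targeted gene of the group. They run from 250 bases before to 50 after the start in RefSeq (GRCh38.p14, plus strand, 5′ to 3′), at chr6:137867009-137867308 and chr5:14664468-14664767, and capitals mark matches to the kappa-B consensus on either strand.
TNFAIP3: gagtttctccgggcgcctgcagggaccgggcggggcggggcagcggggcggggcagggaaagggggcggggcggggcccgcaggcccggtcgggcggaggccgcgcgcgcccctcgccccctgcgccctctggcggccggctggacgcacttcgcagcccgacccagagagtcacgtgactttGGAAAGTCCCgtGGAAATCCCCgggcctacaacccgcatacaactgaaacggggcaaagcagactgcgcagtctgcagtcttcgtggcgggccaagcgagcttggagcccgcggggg
OTULIN: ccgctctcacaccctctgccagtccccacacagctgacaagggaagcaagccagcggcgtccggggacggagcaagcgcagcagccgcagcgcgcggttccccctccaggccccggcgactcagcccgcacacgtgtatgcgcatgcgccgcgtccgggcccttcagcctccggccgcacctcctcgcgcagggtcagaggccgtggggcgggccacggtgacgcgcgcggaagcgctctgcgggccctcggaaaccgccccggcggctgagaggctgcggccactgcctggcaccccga
The TNFAIP3 window held 2 matches, side by side at -67 to -58 and -55 to -46 from the start, and the OTULIN window held 0. Of 35116 promoter windows of the same length 11.3% held at least 1 match and 2.04% held 2 or more. Promoters were matched for 9 of the 10 genes in 14 windows, and TNIP1 and CYLD also had a match in at least 1 of theirs. A match describes these letters and shows no binding.

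In the KO libraries all 10 genes were at 0 counts in each of the 3 replicates. OTULIN, the targeted gene, had 0, 0 and 0 counts there and 1682, 2101 and 2155 in WT replicates 1, 2 and 3. Of the 9 members that passed the filter on mean FPKM, 9 were called lower in KO (quasi-likelihood test of edgeR, with p-values adjusted by Benjamini-Hochberg over all genes tested and called under 0.05). That filter passes a gene at 0 in KO only where its WT level is high, so these calls do not support a change of their own. Of all genes tested, 88.0% were called lower in KO and 71.3% were at 0 counts in all KO libraries. The absence of OTULIN reads therefore does not check the knockout label, and a disrupted gene can still be transcribed.

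At their WT share of the counts, 9 of the 10 genes would have been counted in each KO library. Expected counts per KO library were 22.9 to 27.2 for OTULIN, 14.3 to 17.0 for RNF31, 38.8 to 46.2 for RBCK1 and 24.7 to 29.3 for SHARPIN. They were 23.8 to 28.3 for CYLD, 12.9 to 15.4 for SPATA2, 27.8 to 33.0 for OTULINL, 36.9 to 43.9 for TNIP1 and 15.7 to 18.6 for TNIP2. For TNFAIP3 only 0.105 to 0.125 counts were expected, so its level in KO was not detectable at this depth. With 3 counts in the KO libraries together as the floor (1.25 CPM), TNIP1 was at least 40.7-fold lower, OTULINL at least 30.6-fold, TNIP2 at least 17.3-fold and SPATA2 at least 14.3-fold. The edgeR adjusted p ran from 3.13e-05 for TNIP1 to 0.0113 for RNF31, which had the largest spread in WT. ENSG00000259529 was at 0 counts in KO as well.

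Other genes of the pathway were not uniformly absent from KO. A list of 29 further genes held 28 in the table (TNIP3 was not in it), of which 14 had a count in at least 1 KO library and 14 had none. Of 24 tested, 6 were higher in KO, 16 lower and 2 not called (edgeR, adjusted p under 0.05), where 7.63% of all genes tested were called higher and 88.0% lower. Of the 24, 10 were at 0 in all KO libraries, against 71.3% of all genes tested. The 6 were UBE2L3, UBE2D2, UBE2D3, RNF11, TAB2 and ITCH, and the calls of TAB2 and ITCH depended on the scaling. With genes at 0 put at their bound (10 of 24 here and 7716 of 10820 in all), the median log2 ratio of KO to WT was -3.39 for this list and -4.55 for all genes tested. Both are upper limits, the second being a bound itself, and are not compared. These counts describe the list only.

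**Figure D4:**
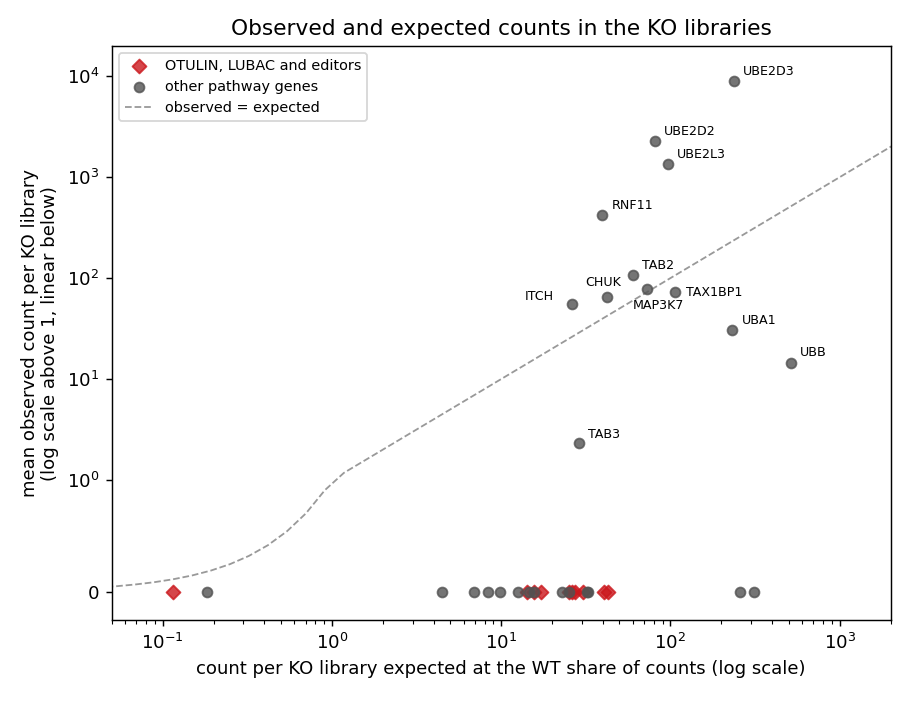
Mean observed count per KO library (vertical axis) against the count expected at the WT share (horizontal axis), both on log scales, the vertical one linear below 1, for the 10 genes (red diamonds) and other genes of the pathway list (grey). All red diamonds lie at 0, while UBE2D3, UBE2D2, UBE2L3 and RNF11 lie far above the dashed line of equality.

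The enzymes that hand ubiquitin to LUBAC were split. UBE2L3, the conjugating enzyme that serves RNF31 and RBCK1, had 1375, 1325 and 1375 counts in KO and 7300, 8205 and 7244 in WT, which is 14.2-fold higher in KO as CPM. UBE2D2 and UBE2D3, broadly acting conjugating enzymes, were 28.5-fold and 38.3-fold higher as CPM. The raw counts of all 3 genes were lower in KO, with 8788 to 9412 for UBE2D3 against 17571 to 19577 in WT. These folds are shares of library totals in which 71.3% of all genes tested were at 0 in KO. They describe the deposited counts and need not mean higher expression. The edgeR log2 changes of UBE2L3, UBE2D2 and UBE2D3 were 3.43 (SE 0.091), 4.43 (SE 0.10) and 4.86 (SE 0.066), with adjusted p of 1.61e-06 or less. With median-ratio scaling the log2 changes were smaller, at 2.86, 3.87 and 4.30, and with library totals alone they were larger, at 3.82, 4.83 and 5.26. UBE2D1, of the same family, had 0 counts in KO, at least 32.8-fold below WT. Reads of near-identical copies can be shared among the UBE2D genes and their pseudogenes, so their split is uncertain. UBA1, the activating enzyme, had 0, 0 and 93 counts in KO against 17235 to 18786 in WT (edgeR log2 change -3.26, SE 1.2, adjusted p = 0.0339), so its KO level rests on replicate 3, without which it was at 0. The call was also lost without WT replicate 1, 2 or 3 (edgeR adjusted p = 0.151, 0.108 and 0.101) and with DESeq2 (0.128). With library totals alone and with the replicate block it was lost too (edgeR adjusted p = 0.0586 and 0.108).

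The 4 ubiquitin genes were all called lower, as were 88.0% of all genes tested. UBB, which encodes ubiquitin repeats, had 8, 10 and 25 counts in KO and 37642 to 41739 in WT, and was 34.5-fold lower as CPM. Its edgeR log2 change was -5.54, and -6.22 without KO replicate 3, which holds most of its KO counts. RPS27A, which fuses ubiquitin to a ribosomal protein, was at 0 and at least 311-fold lower.

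All 6 genes of the TNF receptor complex were at 0 in KO, and 4 of them were tested and called lower, where 71.3% of all genes tested were at 0 and 88.0% were called lower. The most abundant in WT were BIRC2, a ligase that adds ubiquitin at the receptor, at 8.18 ± 0.78 FPKM, and the adaptor TRAF2 at 7.12 ± 0.30. BIRC3, the inducible relative of BIRC2, was nearly silent in WT at 0.0273 ± 0.0044 FPKM, as TNFAIP3 was.

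Readers and kinases were split as well. IKBKG (NEMO), which binds linear chains, had 0 counts in KO, at least 15.7-fold below its WT level of 3.32 ± 0.27 FPKM, and TAB1 at least 12.6-fold below 3.26 ± 0.088 FPKM. IKBKG has a near-identical pseudogene, so its count is uncertain. TAB3 had 0, 0 and 7 counts in KO, was 11.2-fold lower and was at 0 without KO replicate 3. CHUK, a kinase of the IKK complex, had 57, 68 and 69 counts in KO. Its log2 change was 0.23 (SE 0.14, adjusted p of edgeR = 0.165), which turned to -0.33 with median-ratio scaling. MAP3K7 (TAK1) had 64, 80 and 92, and its change was -0.27 (SE 0.18, adjusted p of edgeR = 0.186), which turned to 0.12 with library totals alone. TAB2, its adaptor, had 107, 104 and 114, and its change was 0.46 (SE 0.088, adjusted p of edgeR = 0.00201), which turned to -0.10 with median-ratio scaling. Over the 1496 tested genes that had 30 or more KO counts in sum, the log2 change had a median of 0.57 as fitted, 0.01 with median-ratio scaling and 0.96 with library totals alone, so no direction is given for these 3 genes.

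Partners of TNFAIP3 and CYLD included RNF11, a subunit of the A20 editing complex, with 453, 434 and 386 counts in KO and 3078, 3110 and 3167 in WT. As CPM it was 10.7-fold higher in KO (edgeR log2 change 3.02, SE 0.095, adjusted p = 2.95e-06), and its log2 change was 2.47 with median-ratio scaling. This fold too is a share of the deposited counts and need not mean higher expression. ITCH, the ligase of that complex, had 72, 38 and 57 counts in KO and was 0.69 higher on the log2 scale (SE 0.25, adjusted p of edgeR = 0.0342). That call was lost with median-ratio scaling (0.14, edgeR adjusted p = 0.585), without KO replicate 1 or 3 (edgeR adjusted p = 0.140 and 0.0794) and without WT replicate 1 or 2 (0.0974 and 0.0633). TAX1BP1, its adaptor, had 64, 80 and 74 counts and fell by 0.94 on the log2 scale (SE 0.15, edgeR adjusted p = 0.000812). VCP, an unfolding enzyme that acts on ubiquitinated proteins, was at 29.6 ± 0.33 FPKM in WT and at least 259-fold lower, and SPATA2L, the relative of SPATA2, at least 9.87-fold lower.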

How the data were processed

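The deposited table holds 1 whole-number count and 1 FPKM value per gene and library, both the authors' own values. Per the submitters' processing notes, the build was hg38 and the tools were HISAT2 2.0.4, cutadapt 1.9, DESeq2 and StringTie 1.3.4d, whose roles and order are not recorded there. Strandedness and annotation release: not given in the sources used here. Columns were matched to samples by library name, and the genotype in each title set its group. Replicate pairs differed by a chi-square of 15.5 to 41.7 per degree of freedom, so none was 1 library counted again.

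Genes averaging 1 FPKM or more were tested with edgeR 4.0.16 (glmQLFTest, TMM factors, R 4.3.3), with genotype as the only term and Benjamini-Hochberg adjustment over all 10820. The script was tested on simulated data in which most genes did not differ between the groups. That setting is unlike these data, so the test does not bear on the calls reported here. WT levels and their ratios use FPKM within each library, as a description with no test; an exact sign test over 3 libraries cannot reach p under 0.05. Bounds use a floor of 3 counts, and intervals and floors cover counting error only.

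Alternatives were no filter, at least 5 FPKM, median-ratio scaling, library totals alone, DESeq2 1.42.0, limma 3.58.1 on log2(FPKM + 1) and log2(FPKM + 0.1), a replicate block, leaving out each library, and counts per coding length. The coding length was planned from RefSeq proteins and was taken from the coding sequences of GENCODE release 29, which shares the build hg38. Counts per longest coding transcript, the sum of RNF31 with ENSG00000259529, and TNFAIP3 without WT replicate 3 were added after the data were seen. Promoters are from RefSeq (GRCh38.p14).

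The members and lists were chosen with earlier results of these data known. All 10 members were named. Of the pathway list, genes with a KO count were named and, of the rest, the 2 with the highest WT level in each role. Some genes of these lists are not reported here. BIRC3, ENSG00000259529, IRF9 and the genes overlapping members on the opposite strand were named after their values were seen. The 3 genes nearest to OTULIN were taken by Euclidean distance. Python 3.11.15, numpy 2.4.6, scipy 1.17.1, pandas 2.3.3 and matplotlib 3.10.9 were used.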

Additional observations from a re-analysis of the deposited data

How the results depend on the processing

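All 9 tested members were at 0 counts in every KO library, so their direction was fixed in advance under any fit. The fits below therefore lend no support to a change of these genes. The 9 members kept their direction and their call under DESeq2, both limma fits, median-ratio scaling, library totals alone and no filter. They also kept it wherever they were tested with 1 library left out, which was 9 members without KO replicate 1, 2 or 3, 8 without WT replicate 1 or 2 and 7 without WT replicate 3. A filter of at least 5 FPKM left fewer genes to test. It gave 4504 calls in place of 10345, 3851 of them lower, with 1 member tested and called, and 13 pathway calls, 9 of them lower.

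Same-numbered KO and WT libraries did not deviate together (correlations of 0.01, -0.01 and 0.03). Of the genes tested, 71.3% were at 0 in all KO libraries and could not deviate there. Whether the numbers pair the libraries therefore cannot be told from these correlations. With the replicate block 741 genes were called, 452 higher and 289 lower. Of the members 0 were called there (edgeR adjusted p from 0.0939 to 0.0998, all 9 still lower), and 7 pathway genes were, 3 of them lower.

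The log2 change of CHUK turned to -0.10 with at least 5 FPKM, -0.33 with median-ratio scaling and -0.33 with DESeq2. CHUK was called lower with median-ratio scaling (edgeR adjusted p = 0.0210) and with DESeq2 (0.0280). It was called higher at 0.62 with library totals alone (edgeR adjusted p = 0.00543). Both limma fits also called it higher, at 0.52 on log2(FPKM + 1) and 0.57 on log2(FPKM + 0.1) (limma adjusted p = 0.0115 and 0.0178). For MAP3K7 the log2 change turned to 0.12 with library totals alone, 0.061 with limma on log2(FPKM + 1) and 0.065 on log2(FPKM + 0.1). It was called lower at -0.83 with median-ratio scaling, -0.83 with DESeq2 and -0.60 with at least 5 FPKM (adjusted p = 0.000936, 1.41e-08 and 0.00905). That of TAB2 turned to -0.10 with median-ratio scaling and -0.10 with DESeq2.

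The order of the WT levels depended on the length scale by construction: 1 of 10 members kept its place per coding length, 2 per longest coding transcript, and 8 to 10 with 1 WT library left out. Per coding length, RBCK1 was at 1.19 of SHARPIN, RNF31 at 0.162 of RBCK1, OTULIN at 5.27 of RNF31 and 1.02 of SHARPIN. On that scale CYLD was at 2.02 of RNF31 and 0.384 of OTULIN, OTULINL at 1.20 of OTULIN, TNIP1 at 1.59 of TNIP2 and SPATA2 at 0.997 of CYLD. Per longest coding transcript, RBCK1 was at 1.00 of SHARPIN, RNF31 at 0.260 of RBCK1, OTULIN at 0.804 of RNF31 and 0.209 of SHARPIN. There CYLD was at 0.956 of OTULIN, OTULINL at 2.64 of OTULIN, TNIP1 at 1.61 of TNIP2 and SPATA2 at 1.11 of CYLD. With RNF31 summed with its overlapping locus, RNF31 was at 0.832 of SHARPIN, OTULIN at 0.251 of RNF31 and CYLD at 0.240 of RNF31.

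Depth limited the KO libraries, where a count of 0 allows up to 3.48 to 4.13 CPM per library, above the 0.145 CPM of TNFAIP3 in WT.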
